A study of Homo sapiens with 8 samples.

Results

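The Wnt/β-catenin response was examined through 10 genes, chosen by name from the 58735 genes of the count table. They comprise 3 of the TCF/LEF transcription factors (LEF1, TCF7 and TCF7L2) and 7 genes long used as readouts of the pathway (AXIN2, NKD1, RNF43, ZNRF3, LGR5, DKK1 and SP5). Read counts came from RNA-seq of 8 libraries of cells labelled A549, a human cell line derived from a lung adenocarcinoma. A lentivirus without an insert had been used for 4 of them (EV, empty vector) and a lentivirus carrying Flag-tagged KRT19, the gene of an intermediate filament keratin of simple epithelia, for the other 4 (KRT19 group, KRT19-OVE in the labels), and transduced cells were selected with puromycin per the methods. The comparison asks whether the transcripts of these 10 genes differ when KRT19 is overexpressed. The promoter of the vector, and whether a clone or a pool of transduced cells was used, are not given in the sources used here, and the labels do not say whether the libraries of a group came from separate cultures, so p-values measure only the spread between these libraries.

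Wnt ligands bind Frizzled receptors and the coreceptors LRP5 and LRP6, which stops a cytoplasmic destruction complex from marking β-catenin for degradation. β-catenin then enters the nucleus and binds TCF/LEF factors, which otherwise hold target genes down together with corepressors. Several of the genes switched on in this way restrain the pathway in turn, and their transcripts are therefore read as a sign of its activity.

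Libraries held 14073065 to 17054364 counts in total. KRT19 itself had 1 to 5 counts in EV and 4353 to 5147 in KRT19 libraries, so each library matched its group label by this transcript. The EV libraries thus held almost no KRT19 transcript. By contrast, the paper reports endogenous KRT19 bound to MYH9 in A549 cells, and KRT19 mRNA and protein there that rose with lactate. The reason for this difference was not tested. Libraries of 1 group differed from each other by more than counting noise, the chi-square divided by its degrees of freedom being 2.82 to 6.58 for pairs without KRT19 replicate 3 and 7.83 to 13.8 for the 3 pairs that held it. Among the markers examined, KRT8 (189.3 to 230.9 CPM, counts scaled to a common library size) and KRT18 (273.8 to 346.9 CPM) were plentiful and KRT7 was at 2.25 to 4.28 CPM, but the epithelial adhesion genes EPCAM and CDH1 had at most 3 counts in any library. Of 6 alveolar type II genes, 4 (SFTPA1, SFTPA2, SFTPB and SFTPC) had no count and the summed level of all 6 stayed at or below 0.588 CPM. A549 is known for a homozygous deletion that takes CDKN2A and MTAP, yet CDKN2A was at 94.2 to 107.9 CPM and MTAP at 41.8 to 50.9 CPM, so these values go against the line named in the labels. Summed levels over the EV and the KRT19 libraries were 2.40 to 3.29 and 1.79 to 3.80 CPM for 5 fibroblast genes, 2.11 to 2.33 and 1.59 to 1.85 CPM for 3 endothelial genes and 0 to 0.304 and 0.199 to 0.284 CPM for 4 leukocyte genes. Their part in the values below was not tested.

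Of the 10 genes, 7 passed the filter on low counts (TCF7L2, TCF7, LEF1, DKK1, ZNRF3, SP5 and AXIN2). The other 3 (NKD1, RNF43 and LGR5) had at most 5 counts in any library and were not tested. With edgeR, none of the 7 passed an adjusted p of 0.05 between the groups and none had an unadjusted p under 0.05, where 0.00684% of all 14621 genes tested passed the first and 5.41% the second. The only gene to pass the adjusted threshold was KRT19 itself (edgeR, adjusted p = 5.19e-20). At the unadjusted threshold DESeq2 also gave none of the 7, where it gave 3.97% of all genes, and limma-voom gave 2 (TCF7L2 and AXIN2), where it gave 9.14% of all genes. None of the 7 passed the adjusted threshold with either tool.

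**Figure D1:**
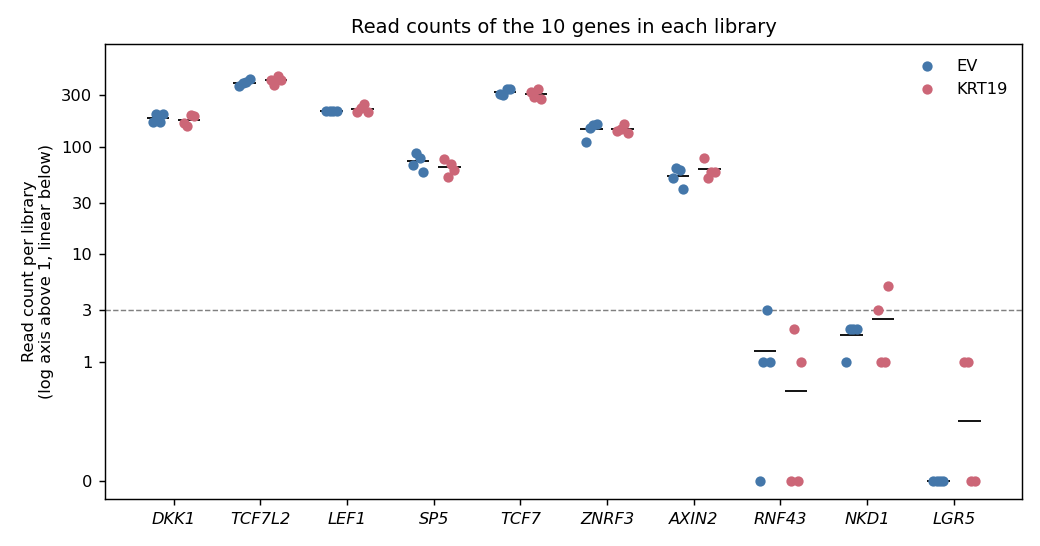
Read counts (y axis, logarithmic above 1 and linear below) of each of the 10 genes (x axis) in the 4 EV and 4 KRT19 libraries, 1 point per library, with the group mean as a bar and a dashed line at 3 counts. The 7 tested genes lie between 40 and 457 counts and the other 3 between 0 and 5.

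To compare levels between genes, counts were divided by gene length and scaled to a common sum per library (TPM, transcripts relative to all transcripts). The length used is that of all annotated exons merged, which can exceed that of any single transcript. TPM is therefore low for genes with many alternative exons, such as TCF7 (10063 bases) and NKD1 (17425 bases). Over the 8 libraries, DKK1 had the highest level of the 10, at 18.5 ± 1.54 TPM, followed by TCF7L2 at 13.5 ± 0.830, LEF1 at 9.23 ± 0.944, SP5 at 7.49 ± 1.06, TCF7 at 7.06 ± 0.423, ZNRF3 at 4.69 ± 0.478 and AXIN2 at 2.47 ± 0.436 TPM (SD, n = 8). The ranges of LEF1 and SP5 overlapped, as did those of SP5 and TCF7, and every other pair of neighbours in this order was separate in all 8 libraries. None was an abundant transcript. DKK1 stood at the 53.3rd percentile of the 14621 tested genes by mean TPM, TCF7L2 at the 45.9th and AXIN2 at the 15.8th.

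**Figure D2:**
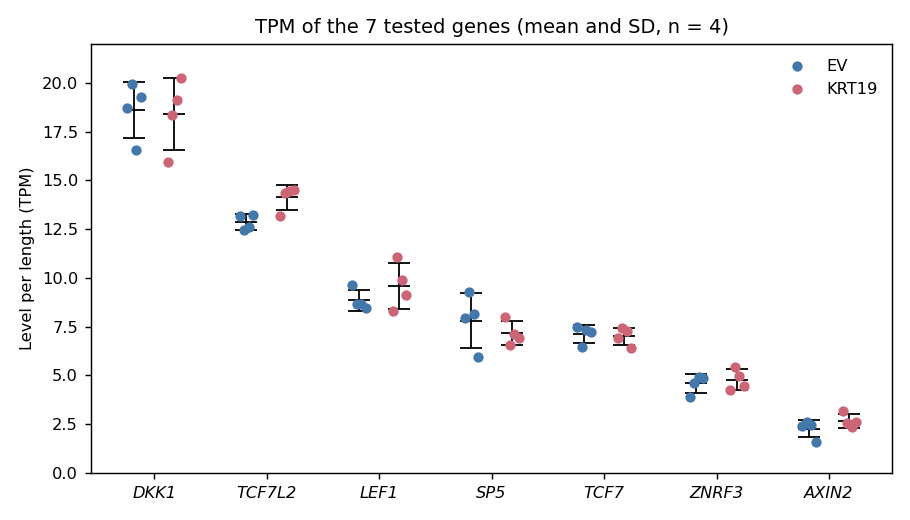
TPM (y axis, a level per length) of the 7 tested genes (x axis) in EV and KRT19 libraries, 1 point per library, with mean and SD (n = 4). DKK1 lies above the other 6 in every library, at 15.9 to 20.3 TPM, and AXIN2, whose counts are uncertain because another gene overlaps it on the same strand, lies lowest, at 1.61 to 3.20 TPM.

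The TCF/LEF factors carry a DNA-binding HMG domain and are the nuclear end of the pathway. TCF7L2 (ENSG00000148737) spans 112950250 to 113167678 of chromosome 10 (GRCh38, plus strand). Its level was 24.2, 23.3, 24.0 and 24.9 CPM in EV replicates 1 to 4 and 25.1, 26.5, 26.8 and 27.6 CPM in KRT19 replicates 1 to 4. TCF7L2 was thus higher in every KRT19 library than in any EV library on this scale, by a margin of 24.9 against 25.1 CPM between the nearest pair. In TPM, which uses the unscaled libraries, the groups overlapped. Means were 24.1 ± 0.666 CPM for EV and 26.5 ± 1.06 CPM for KRT19 (SD, n = 4 each), which is a log2 fold change of 0.13 ± 0.064 (SE) with a 95% interval of the fold from 0.999 to 1.21, an unadjusted p of 0.0521 and an adjusted p of 0.906 in edgeR. The exact permutation p (two-sided) was 0.0286, the smallest that 4 against 4 libraries allow. This value follows from the lack of overlap and is not further support. Of all genes tested, 3.44% did not overlap between the groups in CPM, 1.63% being higher and 1.81% lower in KRT19 libraries, and TCF7L2 was the 1 of the 7 members to do so. In bulk RNA, more cells that express a gene and more RNA per cell cannot be told apart. Without KRT19 replicate 1 the unadjusted p was 0.0348, and without KRT19 replicate 4 it was 0.139.

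LEF1 (ENSG00000138795) spans 108047545 to 108168956 of chromosome 4 (minus strand) and encodes the factor first known from lymphoid cells. It was at 14.1, 12.9, 13.1 and 12.6 CPM in the EV replicates 1 to 4 and at 12.6, 16.3, 14.6 and 13.8 CPM in KRT19 replicates 1 to 4. The highest value was in KRT19 replicate 2, the lowest in KRT19 replicate 1, and the groups overlapped. A log2 fold change of 0.12 ± 0.093 (SE) was within the spread between replicates (edgeR, adjusted p = 0.919). The antisense gene LEF1-AS1 overlaps its start and had 1 to 7 counts.

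TCF7 (ENSG00000081059), best known as the T cell factor TCF1, spans 134114711 to 134151865 of chromosome 5 (plus strand). It had 308, 299, 342 and 346 counts in EV replicates 1 to 4 and 324, 287, 344 and 276 counts in KRT19 replicates 1 to 4, or 19.9 ± 1.28 and 19.6 ± 0.956 CPM (SD, n = 4 each). Both groups held a library below the rest in CPM (EV replicate 2, and KRT19 replicate 4 at 18.3 CPM), and they overlapped throughout. TCF7 had a log2 fold change of -0.023 ± 0.076 (SE, edgeR, unadjusted p = 0.761). The end of TCF7 overlaps SKP1 on the opposite strand, which had 1937 to 2368 counts, and the handling of strand is not stated, so the counts of TCF7 at that end are uncertain.

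The balance between the TCF/LEF factors was then described, with TCF7L1 added as the remaining factor of the family and one known mainly as a repressor. TCF7L1 was at 11.0 ± 1.18 TPM (SD, n = 8), so all 4 factors were transcribed. Of their summed TPM, TCF7L2 took 32.5% ± 0.672 in EV and 33.8% ± 2.33 in KRT19 libraries, and TCF7L1 took 27.3% ± 0.849 and 26.6% ± 3.37 (SD, n = 4 each). LEF1 took 22.3% ± 0.942 and 22.9% ± 1.95, and TCF7 took 17.9% ± 0.781 and 16.7% ± 0.463 (SD, n = 4 each). The order of the group means was the same in EV and KRT19 libraries, and the shares overlapped between the groups for all 4 factors. These shares depend on the merged exon length, 10063 bases for TCF7 against 4414 for TCF7L1, 5361 for LEF1 and 6736 for TCF7L2. In CPM, TCF7 (19.9 in EV, 19.6 in KRT19) lay above LEF1 (13.2 and 14.3) and TCF7L1 (13.3 and 13.7). The last place of TCF7 therefore holds only per length, and its counts at the SKP1 end are uncertain. In the KRT19 group the share of TCF7L1 was highest in replicate 1 (31.2%) and lowest in replicate 4 (23.7%), and that of TCF7L2 was highest in replicate 4 (36.8%).

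**Figure D3:**
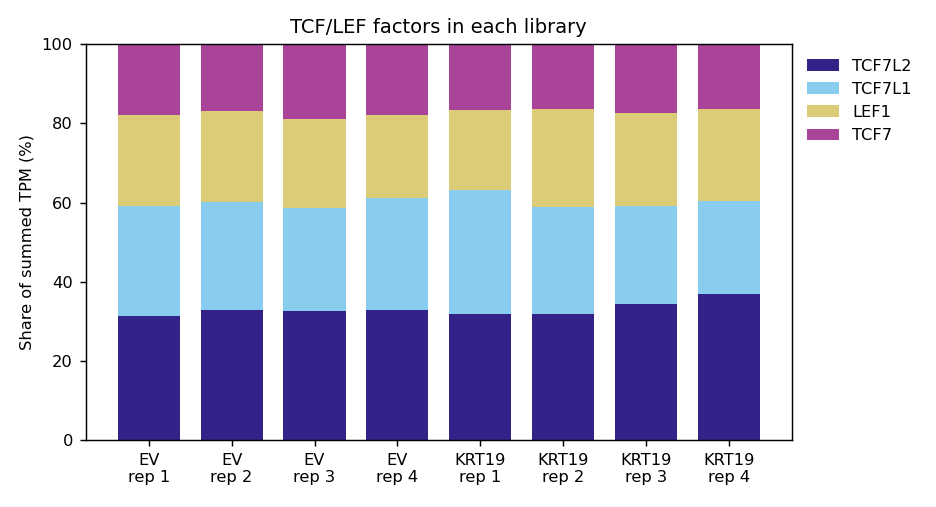
Share of the summed TPM of the 4 TCF/LEF factors (y axis, percent) in each of the 8 libraries (x axis), stacked by factor. TCF7L2 forms 31.5% to 36.8% and TCF7 16.3% to 18.9% of every bar. Shares use the merged exon length, which is greatest for TCF7 (10063 bases).

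The target genes that act as feedback inhibitors inside the cell were compared next. AXIN2 (ENSG00000168646), a scaffold of the destruction complex and the most widely used readout of the pathway, spans 65528563 to 65561647 of chromosome 17 (minus strand). It had 51, 63, 60 and 40 counts in EV replicates 1 to 4 and 78, 51, 58 and 58 counts in KRT19 replicates 1 to 4. After scaling these were 3.30 ± 0.652 CPM for EV and 3.89 ± 0.573 CPM for KRT19 (SD, n = 4 each). EV replicate 4 was low (2.35 CPM) and KRT19 replicate 1 high (4.71 CPM), while the other 6 libraries lay together between 3.39 and 3.84 CPM. AXIN2 had a log2 fold change of 0.24 ± 0.17 (SE), with a fold interval from 0.916 to 1.53 and an adjusted p of 0.911 in edgeR. It fell to 0.11 without EV replicate 4 and to 0.13 without KRT19 replicate 1. AXIN1, the constitutive paralogue, was at 19.8 ± 1.16 TPM against 2.47 ± 0.436 TPM for AXIN2 (SD, n = 8). The protein-coding gene AC004805.1 overlaps AXIN2 on the same strand from 65538102 on and had no count in any library, so the level of AXIN2, its place in the order by TPM included, is uncertain where reads fit both genes.

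NKD1 (ENSG00000140807, chromosome 16, 50548330 to 50649249, plus strand), which antagonises Dishevelled, had 1, 2, 2 and 2 counts in EV and 3, 1, 1 and 5 counts in KRT19 replicates 1 to 4. All libraries but KRT19 replicate 4 were at or under the floor of 3 counts per library, which corresponds to 0.176 to 0.213 CPM. No fold is given at such counts. These floors account for counting error only, because PCR copies of a molecule are not marked in such libraries.

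Of the 2 ubiquitin ligases that clear Frizzled receptors from the membrane, ZNRF3 was transcribed and RNF43 was not detected above the floor. ZNRF3 (ENSG00000183579, chromosome 22, 28883592 to 29057487, plus strand) was at 7.39, 8.98, 9.73 and 9.53 CPM in EV replicates 1 to 4 and at 8.39, 10.4, 9.49 and 8.80 CPM in KRT19 replicates 1 to 4. Its lowest value was in EV replicate 1 and its highest in KRT19 replicate 2, with the groups overlapping. ZNRF3 had a log2 fold change of 0.051 ± 0.11 (SE, edgeR, adjusted p = 0.966). RNF43 (ENSG00000108375, chromosome 17, 58352500 to 58417595, minus strand) had 0, 1, 3 and 1 counts in EV and 0, 2, 0 and 1 counts in KRT19 replicates 1 to 4. It shares sequence with a longer read-through gene (AC004687.2) that had at most 3 counts and overlaps SUPT4H1, which had at most 1, so its counts are uncertain. Both groups lay at or under the floor.

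LGR5 (ENSG00000139292, chromosome 12, 71439770 to 71586310, plus strand) encodes a receptor for R-spondins, the secreted proteins that shield Frizzled from ZNRF3 and RNF43, and marks intestinal stem cells. It had no count in the 4 EV libraries, which allows up to 0.177 to 0.200 CPM, and 1 count each in KRT19 replicates 1 and 2. Of the other R-spondin receptors, LGR4 was at 5.58 ± 0.591 TPM (SD, n = 8) and LGR6 had 5 to 13 counts.

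The sequence before the start sites was examined next. TCF/LEF factors bind short words around the core CTTTG. The 250 bases upstream of the RefSeq start site (GRCh38.p14) were searched on both strands for this core with A or T at each of the next 2 positions, that is CTTTGAA with its variants ending in AT, in TA or in TT. RefSeq promoter sequences matched 6 of the 10 genes by symbol (RNF43, DKK1, SP5, LEF1, TCF7 and TCF7L2), with 10 entries in all, of which 6 held no match. Of 35116 promoters of this length, 12% held at least 1 match, 1.21% at least 2 and 0.122% at least 3. SP5 held 3 matches, between 84 and 148 bases before the start, and DKK1 held 2, at 76 and 95 bases. TCF7L2 is shown beside them because its groups did not overlap in CPM, and the most upstream of its 3 entries, which is printed, held none. Another TCF7L2 entry (window from 113126383 of chromosome 10) held 1 match at 133 bases before its start site, and 1 of the 2 TCF7 entries held 1 at 50 bases. The words do not overlap one another and are printed in capitals, and a match is a description of these letters and not a binding site.
SP5 (chr2:170715087-170715336, plus strand): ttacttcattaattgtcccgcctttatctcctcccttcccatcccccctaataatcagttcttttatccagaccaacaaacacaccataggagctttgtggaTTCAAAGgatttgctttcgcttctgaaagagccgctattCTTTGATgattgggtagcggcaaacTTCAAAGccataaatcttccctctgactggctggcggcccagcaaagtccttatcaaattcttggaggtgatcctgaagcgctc
DKK1 (chr10:52314031-52314280, plus strand): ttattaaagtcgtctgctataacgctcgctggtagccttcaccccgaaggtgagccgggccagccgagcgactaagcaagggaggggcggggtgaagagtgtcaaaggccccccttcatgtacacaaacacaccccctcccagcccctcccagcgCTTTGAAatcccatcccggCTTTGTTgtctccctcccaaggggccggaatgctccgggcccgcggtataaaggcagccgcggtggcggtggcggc
TCF7L2 (chr10:112949997-112950246, plus strand): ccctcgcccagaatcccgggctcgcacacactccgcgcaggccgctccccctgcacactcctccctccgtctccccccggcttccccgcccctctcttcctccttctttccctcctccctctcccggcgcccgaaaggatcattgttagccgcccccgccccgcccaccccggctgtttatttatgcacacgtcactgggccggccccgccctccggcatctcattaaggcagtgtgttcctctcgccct

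SP5 (ENSG00000204335, chromosome 2, 170715351 to 170718078, plus strand) encodes a zinc finger factor that dampens other Wnt target genes. It was at 4.46, 5.30, 4.75 and 3.41 CPM in EV replicates 1 to 4 and at 4.65, 3.70, 4.04 and 4.04 CPM in KRT19 replicates 1 to 4. The EV libraries held both the highest and the lowest value, and EV replicate 4 was the lowest for SP5 as it was for AXIN2. Its log2 fold change was -0.12 ± 0.15 (SE), with a fold interval from 0.734 to 1.15 (edgeR, adjusted p = 0.952). The means of this gene with 3 matches to the TCF/LEF words were 4.48 ± 0.793 and 4.11 ± 0.396 CPM (EV and KRT19, SD, n = 4 each).

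DKK1 (ENSG00000107984, chromosome 10, 52314296 to 52318042, plus strand) encodes a secreted inhibitor that binds LRP5 and LRP6. It was at 11.2, 12.2, 10.3 and 11.9 CPM in EV replicates 1 to 4 and at 9.90, 11.1, 11.6 and 12.6 CPM in KRT19 replicates 1 to 4. KRT19 libraries held both extremes, and per length the means were 18.6 ± 1.46 TPM for EV and 18.4 ± 1.84 TPM for KRT19 (SD, n = 4 each). DKK1 had a log2 fold change of -0.017 ± 0.099 (SE, edgeR, adjusted p = 0.986), with a fold interval from 0.855 to 1.14.

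Over the 7 tested genes, 4 had a higher and 3 a lower estimate in KRT19 libraries, and 52.2% of all genes tested had a higher one. The median log2 fold change was 0.051, against 0.0051 over all genes tested, and the 7 values lay between -0.12 (SP5) and 0.24 (AXIN2). The 95% interval lay within a 1.5-fold change either way for 6 of the 7 genes, AXIN2 being the exception, and for 81.9% of all genes tested. The spread between replicates of a group, in percent of the mean, was 3.49 for TCF7L2 and 5.73 for TCF7, where counting alone gives 4.98 and 5.63. It exceeded counting by more in the other 5, at 8.66 against 6.76 for LEF1, 8.76 against 7.42 for DKK1, 10.7 against 8.30 for ZNRF3, 14.6 against 12.1 for SP5 and 17.1 against 13.2 for AXIN2. Without KRT19 replicate 3, the library farthest from its group, the estimates were 0.31 for AXIN2, 0.13 for TCF7L2, 0.10 for LEF1 and 0.037 for ZNRF3. They were -0.031 for DKK1, -0.038 for TCF7 and -0.11 for SP5.

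**Figure D4:**
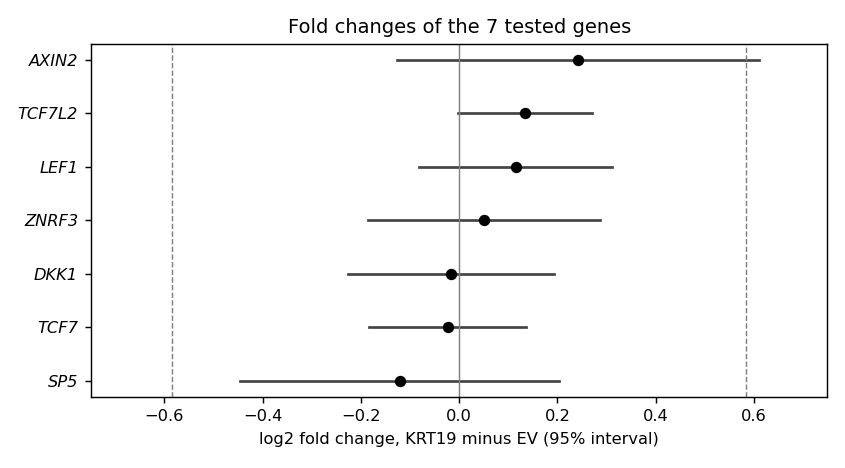
Log2 fold change (x axis, KRT19 minus EV) of the 7 tested genes (y axis) with its 95% interval from edgeR. The solid line marks no change and the dashed lines a 1.5-fold change. All 7 intervals include 0, and that of AXIN2 alone crosses a dashed line.

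The other genes of the pathway were compared by role, from lists of 97 genes of which 66 were tested. None passed the adjusted threshold in edgeR. At an unadjusted p under 0.05 there were 4, all lower in KRT19 libraries (WNT7B, LGR4, KREMEN1 and NOTUM), where 5.41% of all genes tested passed, 2.85% higher and 2.56% lower. Across the 66 genes the estimates split evenly, 33 higher and 33 lower, and the median log2 fold change was -0.0049. In CPM 5 of the 66 did not overlap between the groups, WNT7B, LGR4, KREMEN1 and CD44 being lower and CTNNB1 higher in KRT19 libraries, where 1.81% of all genes tested were lower and 1.63% higher without overlap.

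Of the ligands with their release and amplifying factors, 9 of 25 genes were tested and 11 had at most 3 counts in any library, among them RSPO1, RSPO2, RSPO3 and RSPO4. WLS, the carrier that exports Wnt proteins, led at 253.0 ± 13.8 TPM, followed by WNT5B at 39.6 ± 1.94 and WNT9A at 33.8 ± 2.54 TPM (SD, n = 8). WNT7B, a ligand of the lung epithelium, had 88 to 102 counts in EV and 65 to 75 in KRT19 libraries. Its log2 fold change was -0.39 ± 0.13 (SE, edgeR, unadjusted p = 0.00978, adjusted p = 0.889), and all 4 KRT19 libraries lay below all EV libraries. The median over the 9 genes was -0.098, with 3 estimates higher and 6 lower.

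Of 17 receptors, 15 were tested. FZD2 led at 59.1 ± 3.53 TPM, with FZD1 at 42.8 ± 2.42 and the coreceptor LRP5 at 41.2 ± 2.75 TPM (SD, n = 8), and none of these 3 differed by more than the spread between replicates. LGR4 had 170 to 179 counts in EV and 131 to 154 in KRT19 libraries, without overlap in CPM, and its log2 fold change was -0.24 ± 0.092 (SE, edgeR, unadjusted p = 0.0168, adjusted p = 0.906). The median over the 15 receptors was -0.016. Among 12 secreted inhibitors and Kremen receptors, 5 were tested, led by DKK3 at 69.5 ± 5.31 TPM, SFRP1 at 25.8 ± 1.98 TPM and KREMEN1 at 13.1 ± 0.977 TPM (SD, n = 8). KREMEN1, a receptor through which DKK1 acts on LRP6, had 450 to 528 counts in EV and 420 to 444 in KRT19 libraries, with a log2 fold change of -0.16 ± 0.066 (SE, edgeR, unadjusted p = 0.0306, adjusted p = 0.906). The median over these 5 genes was -0.066.

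All 15 cytoplasmic transducers were tested, and none passed either threshold. The Dishevelled gene DVL1 was at 179.6 ± 11.6 TPM, the kinase gene GSK3A at 145.8 ± 6.18 TPM and the casein kinase gene CSNK1A1 at 134.9 ± 6.02 TPM (SD, n = 8). CTNNB1, the gene of β-catenin itself and outside the rule for named genes, had 298.5 ± 5.27 CPM against 311.1 ± 8.78 CPM (EV against KRT19, SD, n = 4 each), with a log2 fold change of 0.060 ± 0.044 (SE, edgeR, unadjusted p = 0.191). The estimates of the 15 genes ranged from -0.11 to 0.15 with a median of 0.0019. Of 15 nuclear cofactors, 14 were tested with a median of 0.030 and none passed. CTNNBIP1, which keeps β-catenin from TCF factors, was at 150.7 ± 3.05 TPM, the corepressor gene TLE1 at 72.6 ± 3.83 TPM and the coactivator gene PYGO2 at 70.5 ± 4.02 TPM (SD, n = 8). Of 13 further target genes, 8 were tested and 4 (ASCL2, APCDD1, MMP7 and TBXT) had no count in any library. The cyclin gene CCND1 was at 444.8 ± 27.2 TPM, the adhesion receptor gene CD44 at 198.8 ± 8.90 TPM and SOX9 at 162.2 ± 10.9 TPM (SD, n = 8). NOTUM, a secreted enzyme that strips the lipid from Wnt proteins, had 44 to 51 counts in EV and 26 to 42 in KRT19 libraries. In CPM its groups overlapped, and its log2 fold change was -0.42 ± 0.18 (SE, edgeR, unadjusted p = 0.0380, adjusted p = 0.906). The median over the 8 targets was -0.0071.

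**Figure D5:**
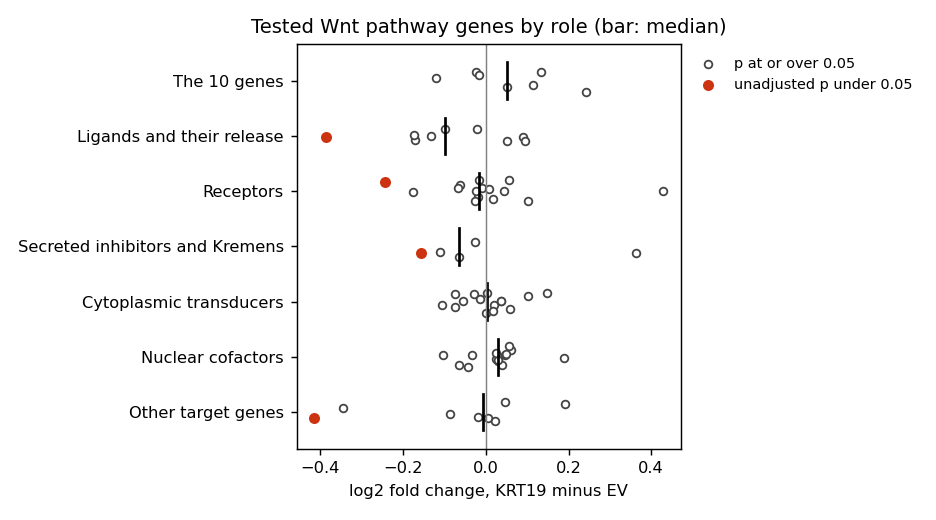
Log2 fold change (x axis, KRT19 minus EV) of the tested genes, 1 point per gene, for the 7 tested members of the 10 genes and for 6 lists of other pathway genes by role (y axis), with the median of each list as a bar. Filled points mark an unadjusted p under 0.05, which 4 of the 66 other pathway genes and none of the members reached.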

How the data were processed

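RNA-seq was performed on 8 libraries (4 EV, 4 KRT19), grouped by sample title. The authors deposited raw read counts per gene, 1 column per library, without normalization. Per the methods, service providers performed sequencing and cleaned the data, and the submitters' processing notes name Bowtie 0.12.2, featureCounts 1.5.0-p3, DESeq2 and hg38 without a role or order. Handling of strand and of multiply mapped reads is not given in the sources used here. All 58735 genes had the same start and end as in GENCODE 29, and the deposited length equalled the merged exon length for 58724.

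The analysis was run in edgeR 4.0.16 under R 4.3.3. Genes were kept by filterByExpr (14621 genes, at least 99.8% of each library), scaled by TMM and fitted with glmQLFit and glmQLFTest on the group over all 8 libraries, with two-sided p-values adjusted over all genes by Benjamini-Hochberg. CPM used TMM-scaled libraries, and log2 CPM a prior count of 2. The standard error is the log2 fold change over the square root of F. TPM was computed from counts and the deposited length. Single values were compared by exact permutation of library labels. Alternatives were DESeq2 size factors, upper-quartile scaling, DESeq2 1.42.0, limma-voom (limma 3.58.1) with quality weights, a looser and a stricter filter, a replicate block and leaving out each library.

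The members, the pathway lists and the markers were chosen with earlier results of these data known. The result of 1 marker list is not reported here. Named genes were all 10 members and KRT19 and, in each of 6 pathway lists, the 3 with the highest TPM and those at an unadjusted p under 0.05. TCF7L1, AXIN1, LGR6, CTNNB1, PYGO1, genes that overlap members and genes at or near 0 were named outside this rule, after their values were seen. Promoter sequences are from RefSeq, GRCh38.p14.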

Additional observations from a re-analysis of the deposited data

Results flagged for a closer look

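Among the log2 CPM of the 7 tested genes and of KRT19 and the shares of the 4 TCF/LEF factors, each taken within EV and within KRT19 (24 groups of 4 libraries), 2 groups held a library far from the other 3 by Dixon's test, which chance alone gives in about 5% of groups. For TCF7 it was EV replicate 2, where the value of 4.18 log2 CPM lay under the 4.36 to 4.39 of its group, a gap of 0.848 of the range. For KRT19 it was KRT19 replicate 3, where the value of 8.17 log2 CPM lay under the 8.27 to 8.28 of its group, a gap of 0.949 of the range. Without EV replicate 2 the log2 fold change of TCF7 was -0.070, against -0.023 with it.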

How the results depend on the processing

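No member passed the adjusted threshold under any of the 15 alternatives. AXIN2, LEF1, SP5 and TCF7L2 kept their direction in all fits that tested them, from 0.11 to 0.37, 0.050 to 0.17, -0.23 to -0.030 and 0.11 to 0.16 on the log2 scale, with adjusted p-values of 0.536 or higher for AXIN2, 0.654 for LEF1, 0.798 for SP5 and 0.510 for TCF7L2. AXIN2 and SP5 were not tested under the stricter filter of 5 CPM in 4 libraries. Leaving out each library in turn gave -0.025 to 0.097 for ZNRF3, -0.074 to 0.043 for DKK1 and -0.070 to 0.0084 for TCF7. The sign changed without EV replicate 1 or KRT19 replicate 2 for ZNRF3, without EV replicate 2, EV replicate 4 or KRT19 replicate 1 for DKK1, and without KRT19 replicate 4 for TCF7. The median over the members turned to -0.0098 without EV replicate 1 and to -0.0046 without KRT19 replicate 2. No member had an unadjusted p under 0.05, but 2 did with limma-voom (AXIN2 and TCF7L2), where 9.14% of all genes did, and 0 to 1 when each library was left out (TCF7L2 without KRT19 replicate 1, where 8.28% of all genes did).

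Over all genes, the adjusted threshold was passed by 1 gene (KRT19), by 5 in DESeq2, by 8 in limma-voom, by 71 under the looser filter of 1 count in all, and by 1 to 5 when each library was left out (3 without EV replicate 1, 5 without KRT19 replicate 3). An unadjusted p under 0.05 was found for 791 genes, for 1337 in limma-voom, for 1559 of the 30250 genes under the looser filter, and for 620 to 1228 when each library was left out (1228 without KRT19 replicate 1). The cause was not tested.

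Same-numbered libraries did not deviate together, their residual correlations being -0.111, -0.0239, -0.159 and 0.0567. With the replicate block, 451 genes had an unadjusted p under 0.05 in place of 791, and 2 pathway genes in place of 4. The block left no member past either threshold. At this depth NKD1, RNF43 and LGR5 had few or no counts, those of RNF43 being uncertain also for its overlapping genes. The looser filter alone tested them (edgeR, unadjusted p = 0.532, 0.616 and 0.156), and no fold is given. That filter tested 85 pathway genes, of which 6 had an unadjusted p under 0.05, where 5.15% of all genes did (the same 4, PYGO1 and WNT1, the last with at most 2 counts in any library).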

Other observations

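Below the filter, 2 other pathway genes chosen after their values were seen had few counts. TNFRSF19, a Wnt target that encodes a receptor of the TNF family, had 0 to 3 counts in EV and 4 to 7 counts in KRT19 libraries. DKK2, a secreted relative of DKK1, had 4 to 6 counts in EV and 6 to 12 counts in KRT19 libraries. Neither passed the filter on low counts, and under the looser filter their unadjusted p-values in edgeR were 0.0897 and 0.126. Other pathway genes below the filter went the other way. WNT1 had 5 counts summed over the EV libraries and 0 over the KRT19 libraries, and WNT2 had 10 and 4.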
